A study of Mus musculus with 18 samples.

Results

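The genes described here make, sense, move and export cholesterol in 3T3-L1, mouse fibroblasts that can be turned into fat-storing adipocytes in culture. They are 27 genes taken by symbol from a list, out of 15194 genes for which a read count could be joined from the deposited tables. The list holds 18 enzymes of cholesterol synthesis, 4 genes of sterol sensing, 3 genes of cholesterol transport inside the cell and 2 efflux pumps. RNA was sequenced in 18 libraries that form 6 groups of 3. J0_CTL and J7_CTL are control cells, undifferentiated (J0) or fully differentiated (J7). J0_MLKL and J7_MLKL carry MLKL-/-, and J0_RIPK3 and J7_RIPK3 carry RIPK3-/-, at the same stages. MLKL and RIPK3 are the proteins that carry out necroptosis, a regulated form of lytic cell death. All 18 samples are labelled untreated. The labels do not state how the knockouts were made, whether each is 1 clone, or whether the replicates of a group were separate cultures. The p-values therefore measure only the spread between these libraries, which may be technical.

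Cells build cholesterol from acetyl-CoA through mevalonate, isoprenoid diphosphates, squalene and a series of ring-shaped sterols. When sterols in the endoplasmic reticulum run low, the protein Scap escorts the transcription factor SREBP2, encoded by Srebf2, to the Golgi for cleavage, and the cleaved factor switches on the synthesis genes. Insig1 and Insig2 hold Scap back when sterols are plentiful. When cholesterol is in excess, oxysterols activate the LXR receptors, which switch on the pumps Abca1 and Abcg1. In adipocytes much of the free cholesterol lies at the surface of the lipid droplet, so the cell type is a large store of it.

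The names of the J7 knockout groups carry a conflict that touches every result on them. For 6 samples, the J7 knockouts, title and genotype field contradict each other, each giving the knockout that the other does not. Groups here follow the titles, which also name the columns of the deposited tables, and the results under the opposite naming are given in the closing section. The targeted transcripts did not settle every label. Mlkl lay between 3.12 and 4.22 FPKM (fragments scaled by gene length and by library total) in J0_MLKL, against 7.91 to 8.58 FPKM in J0_CTL and 6.30 to 7.69 FPKM in J0_RIPK3. Mlkl lay between 6.02 and 7.10 FPKM in J7_MLKL, against 11.01 to 11.95 FPKM in J7_CTL and 11.5 to 14.02 FPKM in J7_RIPK3. Within each stage Mlkl was thus lowest in the libraries whose titles name it, although the J7_MLKL range overlapped that of J0_RIPK3. Ripk3 lay between 4.44 and 5.09 FPKM in J7_RIPK3 and between 3.37 and 5.23 FPKM in J7_MLKL, against 7.63 to 8.36 FPKM in J7_CTL. Ripk3 was therefore lower than control in both J7 knockouts, and in J0_RIPK3 its range of 6.41 to 7.55 FPKM overlapped that of J0_CTL, 7.32 to 8.54 FPKM. The lowest Ripk3 range at J0 was that of J0_MLKL, 2.50 to 4.12 FPKM. Reads outside a disrupted exon can remain in a knockout, and the labels do not say which part of either gene was disrupted.

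Library totals ran from 20.2 M to 36.9 M reads. The deposited tables list only genes that passed the authors' test, so a library's listed genes held 90.0 to 98.4% of its reads in the CTL and RIPK3 groups, 29.3 to 30.4% in J0_MLKL and 53.5 to 54.5% in J7_MLKL. A count was available for 27 of the 27 genes in J0_CTL, J0_RIPK3 and J7_CTL, for 26 in J7_RIPK3, for 22 in J7_MLKL and for 9 in J0_MLKL. Srebf2 has no listed value in J7_RIPK3, and Ebp, Scap, Insig2, Npc1 and Npc2 have none in J7_MLKL. A gene without a listed value in a group was called in none of the authors' comparisons of that group. A gene reached the MLKL groups only because an MLKL comparison of the authors had already called it, so the counts of called genes in those groups are descriptions of a preselected set. Within the MLKL groups, 2 libraries stood apart. Counts of J0_MLKL replicate 2 and J7_MLKL replicate 3 differed from their own replicates by a mean chi-square per gene of 44.1 to 50.2 and 190 to 199, against 2.65 to 5.56 for every other pair. For the 27 genes, the main results of the MLKL comparisons are given with and without these libraries, as are some values of single genes. The shares over all genes, the marker sums and counts, the Mlkl and Ripk3 ranges and the values of other genes include them. Adipocyte markers (10 genes) summed to 5820 to 6134 FPKM in J7_CTL and 5997 to 6591 FPKM in J7_RIPK3, but 754 to 1417 FPKM in J7_MLKL and 39.6 to 55.8 FPKM over all J0 libraries. The adipocyte markers were thus above the J0 level in all J7 groups and, among these, lowest in J7_MLKL.

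Since the synthesis genes moved together, their promoters were read in the RefSeq sequence table for GRCm38.p6, the patched form of mm10. Each window runs from 250 bases before to 50 bases after an annotated start. The table held 27 windows for 21 of the 27 genes. Windows were searched on both strands for TCACNCCAC, a form of the sterol regulatory element that SREBP2 binds, for CCAAT, the letters bound by NF-Y, and for GGGCGG, the letters bound by Sp1. These proteins are known partners of SREBP2 at its target genes. The Hmgcs1 window is shown because it was the 1 window of the 27 that held the sterol regulatory letters. The windows of Insig1, Cyp51 and Abca1 are shown because the results below turn on these genes, a choice made after their values were seen. Capitals mark the letters of the motifs searched, on either strand, and each line is read 5′ to 3′ on the gene's own strand.
Hmgcs1, chr13:119690101-119690400, plus strand: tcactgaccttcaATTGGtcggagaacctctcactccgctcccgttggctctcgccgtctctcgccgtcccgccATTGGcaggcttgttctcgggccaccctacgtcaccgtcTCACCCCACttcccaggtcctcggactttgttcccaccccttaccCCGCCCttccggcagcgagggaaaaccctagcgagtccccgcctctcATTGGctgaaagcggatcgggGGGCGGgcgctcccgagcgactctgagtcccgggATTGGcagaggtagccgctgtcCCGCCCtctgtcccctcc
Insig1, chr5:28071162-28071461, plus strand: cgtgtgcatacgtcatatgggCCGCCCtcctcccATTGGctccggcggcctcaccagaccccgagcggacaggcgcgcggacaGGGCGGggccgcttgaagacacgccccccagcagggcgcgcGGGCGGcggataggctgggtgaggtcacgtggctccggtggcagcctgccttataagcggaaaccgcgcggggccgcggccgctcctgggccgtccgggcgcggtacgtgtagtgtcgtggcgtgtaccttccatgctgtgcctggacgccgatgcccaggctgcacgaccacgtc
Cyp51, chr5:4104648-4104947, minus strand: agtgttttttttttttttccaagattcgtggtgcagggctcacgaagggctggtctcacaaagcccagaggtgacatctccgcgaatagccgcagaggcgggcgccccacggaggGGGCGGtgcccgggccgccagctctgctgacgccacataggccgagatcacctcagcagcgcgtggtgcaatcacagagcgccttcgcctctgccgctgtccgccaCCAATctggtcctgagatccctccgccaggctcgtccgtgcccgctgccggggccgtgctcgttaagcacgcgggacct
Abca1, chr4:53159846-53160145, minus strand: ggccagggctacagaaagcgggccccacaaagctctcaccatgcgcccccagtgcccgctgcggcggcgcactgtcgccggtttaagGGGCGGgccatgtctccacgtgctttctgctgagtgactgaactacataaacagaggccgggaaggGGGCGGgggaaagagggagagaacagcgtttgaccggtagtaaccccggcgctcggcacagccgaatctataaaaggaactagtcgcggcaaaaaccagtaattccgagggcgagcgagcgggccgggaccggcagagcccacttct
The Hmgcs1 window held 1 match to TCACNCCAC, 4 to CCAAT and 3 to GGGCGG. The Insig1 window held 1 CCAAT and 3 GGGCGG, the Cyp51 window 1 of each, and the Abca1 window no CCAAT and 2 GGGCGG. Over the members' 27 windows, TCACNCCAC was present in 3.7%, CCAAT in 66.7% and GGGCGG in 85.2%. The shares over all 32851 windows of the table were 1.24%, 37.4% and 35.7%. These are matches of letters and not measured binding, and a window without a match says only that these letters are not in it.

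In control cells, the synthesis enzymes described here rose with differentiation, and so did the feedback gene Insig1 and both efflux pumps. All 18 synthesis genes were called higher in J7_CTL than in J0_CTL, with log2 fold changes from 0.56 to 3.06 and a median of 1.92. Over the 27 genes, 25 were called higher and 2 lower, with a median of 1.84. In this comparison 95.9% of the 12055 genes tested were called at an adjusted p under 0.05 in edgeR's quasi-likelihood test, 48.2% higher and 47.6% lower, so a call alone says little and the shared direction and size carry the description. The median log2 fold change of all tested genes was 0.03, and their median absolute change was 0.84. The FPKM ranges of the 3 J7_CTL and 3 J0_CTL libraries did not overlap for any of the 27 genes. The share of such genes over all genes was not computed. With 95.9% of genes called, this separation does not mark the 27 genes out.

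The first steps run from acetyl-CoA to the isoprenoid building blocks. Acat2, the thiolase that makes acetoacetyl-CoA, read 28.8, 27.2 and 28.2 FPKM in J0_CTL and 131, 122 and 129 FPKM in J7_CTL. Hmgcs1 (chr13:119690379-119708260 on mm10), which makes HMG-CoA, read 19.3, 18.4 and 19.6 FPKM in J0_CTL and 98.0, 95.3 and 92.3 FPKM in J7_CTL. Hmgcs1 was higher in every J7_CTL library, with a log2 fold change of 2.27 ± 0.04 (SE, 3 libraries a group). Mvk, mevalonate kinase, went from 10.6, 9.82 and 10.0 FPKM to 27.05, 24.5 and 26.3 FPKM. Pmvk, the next kinase, went from 10.4, 10.3 and 9.90 FPKM to 39.5, 36.8 and 36.9 FPKM. Mvd, the decarboxylase that closes the mevalonate branch, went from 10.0, 8.58 and 10.7 FPKM to 53.8, 54.7 and 53.1 FPKM. Of these kinases and the decarboxylase, Mvk changed by 1.30 ± 0.05 and Mvd by 2.42 ± 0.05 on the log2 scale. Idi1, which interconverts the isoprenoid building blocks, read 4.82, 4.97 and 4.63 FPKM in J0_CTL and 21.2, 21.5 and 22.1 FPKM in J7_CTL. Fdps, which joins them to farnesyl diphosphate, read 0.458, 0.408 and 0.489 FPKM in J0_CTL and 3.51, 3.76 and 4.33 FPKM in J7_CTL. Fdft1, squalene synthase, read 8.74, 8.19 and 8.31 FPKM in J0_CTL and 35.2, 34.0 and 33.9 FPKM in J7_CTL.

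Some of these levels are uncertain because near-identical copies or overlapping genes exist. The Fdps transcript shares 98.3% of 1062 bases with the pseudogene Gm3571, which has 54 to 617 counts in the tables against 39 to 495 for Fdps itself. Gm3571 was also higher in J7_CTL, by 2.72 ± 0.10 on the log2 scale, so reads of the pair cannot be told apart by these tables and the low FPKM of Fdps is no measure of its output. Acat2 shares 98.5% of 1414 bases with Acat3, Idi1 shares 100% of 684 bases with the pseudogene Gm13502, and Fdft1 shares 97.4% of 1249 bases with the pseudogene Gm6781. Transcripts of other genes also share bases with members. A Ctsb transcript shares 100% of 1184 bases with Fdft1, and Ctsb, a cathepsin, has 7820 to 16255 counts in the tables against 503 to 3843 for Fdft1. Ctsb (chr14:63122462-63145923, plus strand) and Fdft1 (chr14:63145150-63179578, minus strand) overlap at their ends, so this pair is not a copy elsewhere in the genome. Ctsb was called lower in J7_CTL than in J0_CTL, by -0.19 ± 0.03, where Fdft1 was higher by 1.98 ± 0.04. The gene 3110002H16Rik shares 100% of 876 bases with Npc1 and has 427 to 2096 counts in the tables, so the values of Npc1 are uncertain. These copies and shared stretches were looked for in GRCm39 transcripts, requiring at least 95% identity over at least 600 bases.

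The later enzymes close and trim the sterol ring. Sqle, squalene epoxidase, read 9.64, 8.76 and 10.5 FPKM in J0_CTL and 29.6, 29.4 and 30.0 FPKM in J7_CTL. Lss, which folds the product to lanosterol, read 3.52, 3.35 and 3.32 FPKM in J0_CTL and 15.2, 15.8 and 15.5 FPKM in J7_CTL. Cyp51, the lanosterol demethylase, read 6.21, 5.99 and 6.41 FPKM in J0_CTL and 9.58, 10.4 and 9.14 FPKM in J7_CTL. Cyp51 therefore sat apart from its neighbours in the pathway, with a log2 fold change of 0.60 ± 0.06 against 1.58 ± 0.04 for Sqle and 2.14 ± 0.04 for Lss. Tm7sf2, a sterol reductase that acts after Cyp51, read 2.33, 2.12 and 2.09 FPKM in J0_CTL and 6.33, 5.96 and 6.78 FPKM in J7_CTL. Msmo1, the methylsterol oxidase, read 8.61, 8.34 and 8.59 FPKM in J0_CTL and 46.5, 46.8 and 47.7 FPKM in J7_CTL. Nsdhl, which removes the oxidised carbon, read 11.9, 11.0 and 12.6 FPKM in J0_CTL and 45.3, 42.5 and 44.6 FPKM in J7_CTL. Msmo1 and Nsdhl remove methyl carbons from the ring together with Hsd17b7, the ketoreductase, and these genes were higher in each J7_CTL library than in any J0_CTL library. Hsd17b7 read 5.42, 5.20 and 4.98 FPKM in J0_CTL and 16.0, 16.7 and 16.6 FPKM in J7_CTL. Sc5d, a desaturase, read 6.95, 6.99 and 7.39 FPKM in J0_CTL and 14.5, 14.7 and 15.7 FPKM in J7_CTL. Dhcr7, the reductase of the last step of a branch of the pathway, read 4.34, 3.99 and 4.07 FPKM in J0_CTL and 24.2, 22.1 and 22.3 FPKM in J7_CTL. The smallest change in the pathway was that of Ebp, the sterol isomerase, at 0.56 ± 0.07 on the log2 scale, from 12.6 to 16.2 FPKM in J0_CTL to 19.7 to 23.4 FPKM in J7_CTL.

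**Figure D1:**
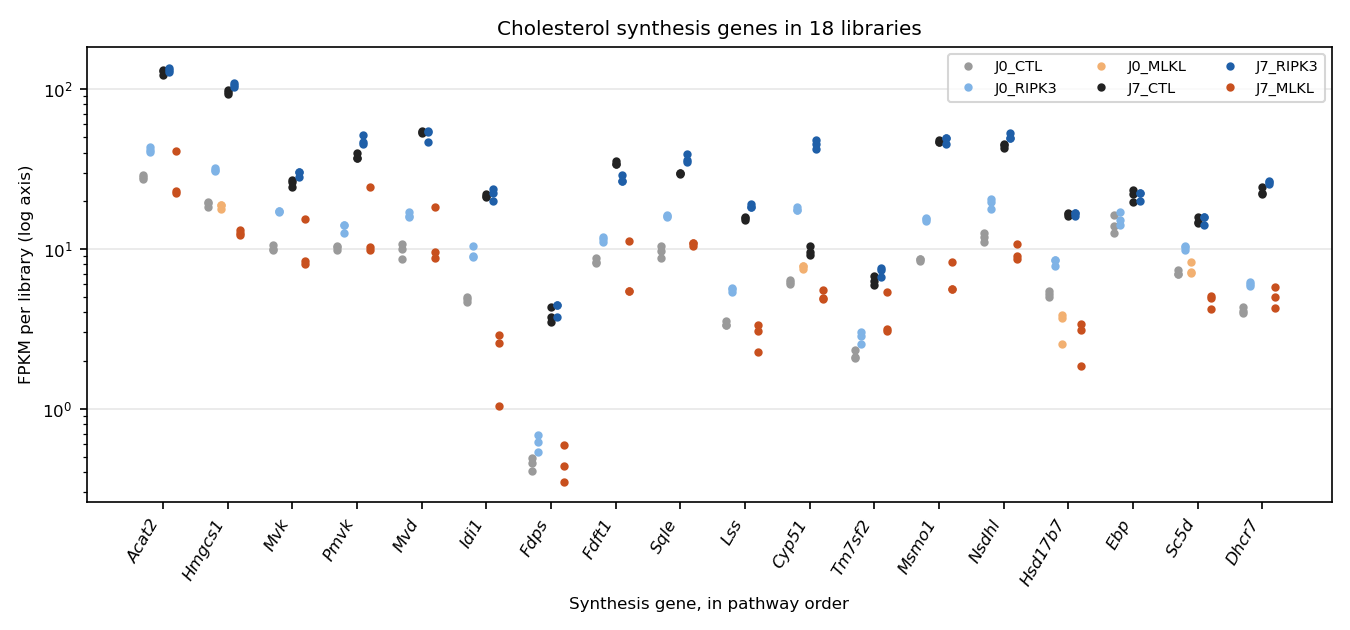
FPKM of the 18 synthesis genes (x axis, in pathway order) in each library, on a log axis, with 1 point per library and 1 colour per group; genes with no listed value in a group have no points there. J7_CTL and J7_RIPK3 points lie above the J0 points of the same genotype for each gene, J7_MLKL points lie below the J7_CTL points, and Cyp51 is the gene at which J7_RIPK3 (41.9 to 48.2 FPKM) parts from J7_CTL (9.14 to 10.4 FPKM).

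Among the sensors, Insig1 (chr5:28071363-28078662 on mm10) changed most. It read 12.7, 12.8 and 12.4 FPKM in J0_CTL and 110.2, 107 and 109 FPKM in J7_CTL, a log2 fold change of 3.06 ± 0.04 (8.34-fold). Insig1 is itself a target of SREBP2 in textbook accounts, whereas Insig2 is not driven by it in the same way. Insig2 changed by 0.38 ± 0.05 and Srebf2 by 0.14 ± 0.03 on the log2 scale. Scap was called lower, by -0.18 ± 0.04, from 11.9 to 13.1 FPKM in J0_CTL to 11.0 to 11.3 FPKM in J7_CTL. Stard4, a sterol carrier of the cytosol and a known SREBP2 target, read 6.28, 5.93 and 6.52 FPKM in J0_CTL and 14.2, 15.5 and 15.1 FPKM in J7_CTL. The lysosomal exporters, which release the cholesterol that arrives with lipoproteins, moved in opposite directions. Npc1 was higher by 0.23 ± 0.05 on the log2 scale. Npc2, the soluble partner, read 172, 163 and 164 FPKM in J0_CTL and 132, 134 and 134 FPKM in J7_CTL, a change of -0.36 ± 0.03. Npc2 had the highest J0_CTL level among the 27 genes on the length-scaled FPKM.

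The efflux pumps had the largest changes among the 27 genes in control cells. Abca1 (chr4:53030787-53159895 on mm10), which loads cholesterol onto lipid-poor apolipoprotein A-I, read 2.07, 2.25 and 2.19 FPKM in J0_CTL and 39.1, 41.3 and 40.8 FPKM in J7_CTL. Abcg1 (chr17:31057698-31115777), which passes cholesterol to mature HDL, read 0.368, 0.337 and 0.318 FPKM in J0_CTL and 29.7, 28.1 and 29.9 FPKM in J7_CTL. The log2 fold changes were 4.17 ± 0.04 for Abca1 (18.1-fold) and 6.36 ± 0.07 for Abcg1 (82.1-fold). Abcg1 rested on 32 to 52 reads in each J0_CTL library. Nr1h3, the LXR alpha receptor, rose by 5.38 ± 0.06 on the log2 scale in the same comparison. Genes of synthesis and genes of efflux, which are usually regulated in opposite directions by sterol load, were thus both higher in J7_CTL.

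RIPK3-/- cells went through differentiation with the same direction in every synthesis gene but, for most of them, a smaller step. All 18 synthesis genes were called higher in J7_RIPK3 than in J0_RIPK3, with log2 fold changes from 0.46 to 2.74 and a median of 1.35. Of the 26 genes tested, 24 were higher and 2 lower, where 97.8% of 11798 genes were called, 49.3% higher and 48.5% lower. The median of the 26 genes was 1.32, against 0.04 over all genes tested. The genes called lower were Scap, at -0.19 ± 0.05, and Npc2, at -0.58 ± 0.04, as in control cells. Scap overlapped between the libraries, at 10.4 to 11.8 FPKM in J0_RIPK3 and 9.77 to 10.5 FPKM in J7_RIPK3. Under the opposite naming of the J7 knockout samples the direction of 17 of these genes turns, as the closing section gives.

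**Figure D2:**
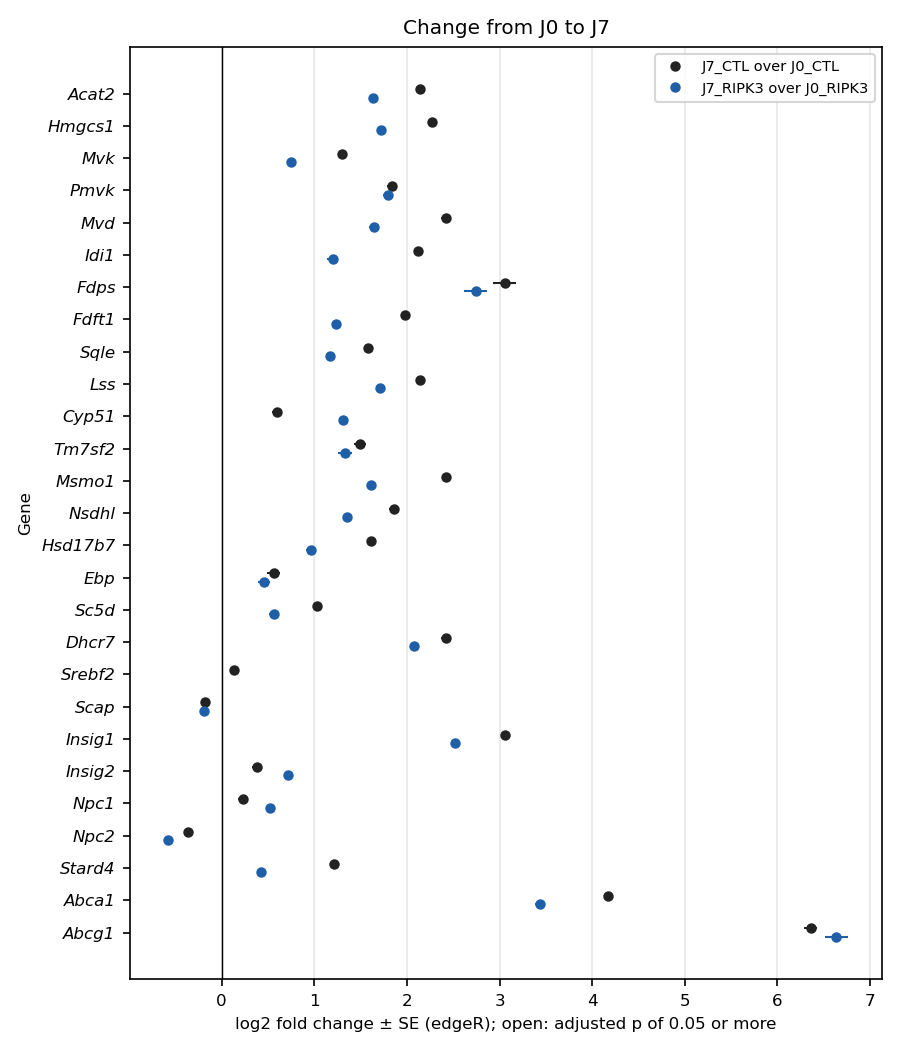
Log2 fold change from J0 to J7 (x axis, bars show the SE of the edgeR fit, 3 libraries a group) for each of the 27 genes in control cells (black) and RIPK3-/- cells (blue). Most blue points lie to the left of the black ones, whereas Cyp51 lies to the right (1.31 against 0.60); Srebf2 has no blue point because it has no listed value in J7_RIPK3.

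Whether the step itself differed between the genotypes was tested with an interaction term, which is the J7 to J0 change in RIPK3-/- cells minus that in control cells. Of 26 genes tested, 17 had a smaller or more negative change in RIPK3-/- cells, 3 had a larger one and 6 were not called. Over all 11027 genes in this test, 39.0% were called, 18.4% higher and 20.6% lower. The lowest interactions were those of Idi1, at -0.90 ± 0.08, and Msmo1, at -0.78 ± 0.05 on the log2 scale. Stard4 followed at -0.77 ± 0.06 and Mvd at -0.75 ± 0.08. The genes with a larger change were Cyp51, at 0.74 ± 0.07, Insig2, at 0.36 ± 0.08, and Npc1, at 0.31 ± 0.07. Genes not called were Pmvk, Fdps, Tm7sf2, Ebp, Scap and Abcg1, and for these the data do not show that the changes were alike. Without J0_RIPK3 replicate 1 the interaction of Abcg1 moved from 0.30 to 0.74 and was called (adjusted p = 0.0277 in edgeR). Every called value stands in the closing section.

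Before differentiation, RIPK3-/- cells already had more of the synthesis transcripts than control cells. In J0_RIPK3 against J0_CTL, 23 of the 27 genes were called higher, 2 lower and 2 were not called. Over the 11044 genes tested, 55.8% were called, 28.3% higher and 27.4% lower. Among the synthesis genes, 17 of 18 were higher, with a median log2 fold change of 0.66 over the 18, against a median of -0.01 and a median absolute change of 0.18 over all genes tested. The authors' deposited pathway table lists steroid biosynthesis for this comparison with 12 genes higher, 0 lower and an adjusted p of 0.0298. For terpenoid backbone biosynthesis, which holds the mevalonate branch, the authors' deposited table gives 10 genes higher, 1 lower and an adjusted p of 0.44. That table was computed from the same libraries and so is no separate evidence. Markers of other states also differed here. Of the adipocyte markers, 4 of 4 tested were higher in J0_RIPK3, with sums of 50.2 to 51.1 FPKM against 39.6 to 40.8 FPKM in J0_CTL. The macrophage markers with a listed value, chiefly Lyz2, summed to 26.8 to 30.6 FPKM in J0_RIPK3 and 55.4 to 59.0 FPKM in J0_CTL. Of the 3 tested, Lyz2 was lower, Csf1r was higher (means of 0.36 against 0.18 FPKM) and Cd68 was not called. Ptprc, Adgre1 and Itgam had no listed value in any library. Of 8 preadipocyte or fibroblast markers tested, 4 were higher, 3 lower and 1 not called. The part of these markers in the result was not tested.

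In the mevalonate branch, Acat2 read 41.5, 43.4 and 40.1 FPKM in J0_RIPK3 and 136, 128 and 132 FPKM in J7_RIPK3. Hmgcs1 read 30.7, 32.1 and 31.1 FPKM in J0_RIPK3 and 106, 108 and 103 FPKM in J7_RIPK3. Each J0_RIPK3 library was above each J0_CTL library for both, with log2 fold changes over J0_CTL of 0.54 ± 0.04 for Acat2 and 0.69 ± 0.03 for Hmgcs1. Mvk read 17.3, 17.0 and 17.3 FPKM in J0_RIPK3 and 30.0, 30.3 and 28.3 FPKM in J7_RIPK3. Pmvk read 14.02, 14.04 and 12.5 FPKM in J0_RIPK3 and 51.2, 46.5 and 45.5 FPKM in J7_RIPK3. Mvd read 15.9, 16.9 and 15.7 FPKM in J0_RIPK3 and 53.8, 54.8 and 46.8 FPKM in J7_RIPK3. At J7 the Mvd libraries overlapped those of J7_CTL, while those of Mvk and Pmvk did not. Idi1 read 8.83, 10.4 and 9.01 FPKM in J0_RIPK3 and 22.4, 23.7 and 19.8 FPKM in J7_RIPK3. Fdps read 0.683, 0.539 and 0.624 FPKM in J0_RIPK3 and 4.44, 3.77 and 4.44 FPKM in J7_RIPK3. Fdft1 read 11.9, 11.5 and 11.0 FPKM in J0_RIPK3 and 29.1, 26.7 and 26.6 FPKM in J7_RIPK3. Idi1 had a log2 fold change over J0_CTL of 0.94 ± 0.07, whereas that of Fdps, 0.43 ± 0.18 with an adjusted p of 0.0491, lost its call in 8 alternatives, among them leaving out any J0_CTL library or J0_RIPK3 replicate 1 or 3.

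In the sterol branch, Sqle read 16.2, 16.0 and 15.8 FPKM in J0_RIPK3 and 39.0, 35.7 and 35.0 FPKM in J7_RIPK3. Lss read 5.39, 5.62 and 5.65 FPKM in J0_RIPK3 and 19.1, 18.2 and 18.2 FPKM in J7_RIPK3. Both lay above the control libraries of the same stage without overlap. Tm7sf2 read 2.84, 2.53 and 3.03 FPKM in J0_RIPK3 and 7.64, 6.63 and 7.41 FPKM in J7_RIPK3. Msmo1 read 15.4, 15.6 and 15.0 FPKM in J0_RIPK3 and 49.4, 49.1 and 45.3 FPKM in J7_RIPK3. Nsdhl read 20.4, 19.8 and 17.8 FPKM in J0_RIPK3 and 52.7, 49.2 and 49.2 FPKM in J7_RIPK3. Of these, Msmo1 had the widest lead over J0_CTL, at 0.83 ± 0.04 on the log2 scale, and at J7 its libraries overlapped those of J7_CTL. Hsd17b7 read 7.78, 8.55 and 8.47 FPKM in J0_RIPK3 and 16.8, 15.9 and 16.7 FPKM in J7_RIPK3. Sc5d read 10.2, 10.4 and 9.78 FPKM in J0_RIPK3 and 15.9, 15.9 and 14.1 FPKM in J7_RIPK3. Dhcr7 read 6.23, 6.01 and 5.85 FPKM in J0_RIPK3 and 26.2, 26.5 and 25.3 FPKM in J7_RIPK3. Ebp, at 13.99 to 17.1 FPKM in J0_RIPK3, was the synthesis gene not called, at 0.08 ± 0.07 with an adjusted p of 0.388, and without J0_CTL replicate 1 it was called higher.

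Cyp51 was the gene of the pathway that set RIPK3-/- cells apart at both stages. It read 17.6, 18.2 and 17.5 FPKM in J0_RIPK3 and 48.2, 45.1 and 41.9 FPKM in J7_RIPK3. Means were 6.20 ± 0.21 FPKM in J0_CTL, 17.8 ± 0.36 FPKM in J0_RIPK3, 9.69 ± 0.61 FPKM in J7_CTL and 45.1 ± 3.16 FPKM in J7_RIPK3 (SD, n = 3 each). The log2 fold change over control was 1.496 ± 0.04 at J0 (2.82-fold, adjusted p = 8.21e-18 in edgeR) and 2.23 ± 0.05 at J7 (4.69-fold, adjusted p = 1.59e-19 in edgeR). No other of the 26 genes tested reached a log2 fold change of 1 over control in J7_RIPK3. The next largest in the pathway at J7 was Pmvk, at 0.35 ± 0.05. The Cyp51 gene, at chr5:4081145-4104746 on mm10, overlaps the end of Akap9 on the other strand, and an Akap9 transcript shares 1204 bases with it. Akap9 differed by 0.35 ± 0.05 between J7_RIPK3 and J7_CTL and by 0.09 ± 0.05 between J0_RIPK3 and J0_CTL, where it was not called (adjusted p = 0.152 in edgeR).

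At J7 the lead of RIPK3-/- cells over control cells was narrow in the rest of the pathway. In J7_RIPK3 against J7_CTL, 13 of the 26 genes tested were called higher, 5 lower and 8 were not called, where 59.1% of 11170 genes were called, 29.6% higher and 29.5% lower. The share of members called, 18 of 26, was near that background. Of the 18 synthesis genes, 9 were higher, 8 were not called and Fdft1 was lower, at -0.31 ± 0.04. Those not called were Acat2, Mvd, Idi1, Fdps, Msmo1, Hsd17b7, Ebp and Sc5d, with log2 fold changes from -0.05 (Mvd) to 0.14 (Fdps). The median of the 26 genes was 0.15, against 0.00 over all genes tested. Of the 10 adipocyte markers 5 were higher, 2 lower and 3 not called, and of 6 preadipocyte markers tested 1 was higher and 5 were lower, and their part in the result was not tested. Tm7sf2, at 0.20 ± 0.06, lost its call without J7_CTL replicate 2, and Fdps was called higher without J7_CTL replicate 3.

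Among the sensors and carriers of RIPK3-/- cells, Insig1 and Stard4 had a wider lead over control at J0 than at J7, and Insig2 and Npc1 a wider one at J7. The interaction was called for each of these genes. Insig1 read 22.9, 23.8 and 23.3 FPKM in J0_RIPK3 and 145, 135 and 130.1 FPKM in J7_RIPK3. Its log2 fold change over control was 0.86 ± 0.04 at J0 and 0.34 ± 0.04 at J7. Srebf2 was higher by 0.25 ± 0.03 at J0, from 20.4, 20.4 and 20.8 FPKM in J0_CTL to 25.1, 24.0 and 25.0 FPKM in J0_RIPK3. Scap was lower at both stages, by -0.15 ± 0.04 and -0.14 ± 0.04. Insig2 was higher by 0.18 ± 0.05 at J0 and by 0.54 ± 0.05 at J7. Stard4 read 12.2, 11.9 and 12.01 FPKM in J0_RIPK3 and 16.3, 16.8 and 16.3 FPKM in J7_RIPK3, which is 0.93 ± 0.04 and 0.16 ± 0.04 over control on the log2 scale. Stard4 was thus 1.90-fold control at J0, next after Cyp51 and Idi1 among the genes called higher. Npc1 was higher by 0.19 ± 0.04 at J0 and 0.50 ± 0.05 at J7. Npc2 was not called at J0 (-0.04 ± 0.03, adjusted p = 0.257 in edgeR) and was lower at J7, at 118, 112 and 105 FPKM against 132 to 134 FPKM in J7_CTL.

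Both efflux pumps were lower in J7_RIPK3 than in J7_CTL. Abca1 read 2.93, 3.20 and 3.14 FPKM in J0_RIPK3 and 34.9, 32.4 and 35.0 FPKM in J7_RIPK3. It was above control at J0 (0.49 ± 0.06) and below it at J7 (-0.23 ± 0.04), with no overlap of libraries at either stage. Abcg1 read 0.271, 0.0750 and 0.153 FPKM in J0_RIPK3, from 28, 7 and 23 reads, and 17.4, 17.2 and 16.8 FPKM in J7_RIPK3. It was lower than control at J0 by -1.05 ± 0.31 (adjusted p = 0.00574 in edgeR) and at J7 by -0.76 ± 0.04 (adjusted p = 6.84e-13 in edgeR). The J0 value rests on very few reads, and the J7 value on 1409 to 3256 reads a library.

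**Figure D3:**
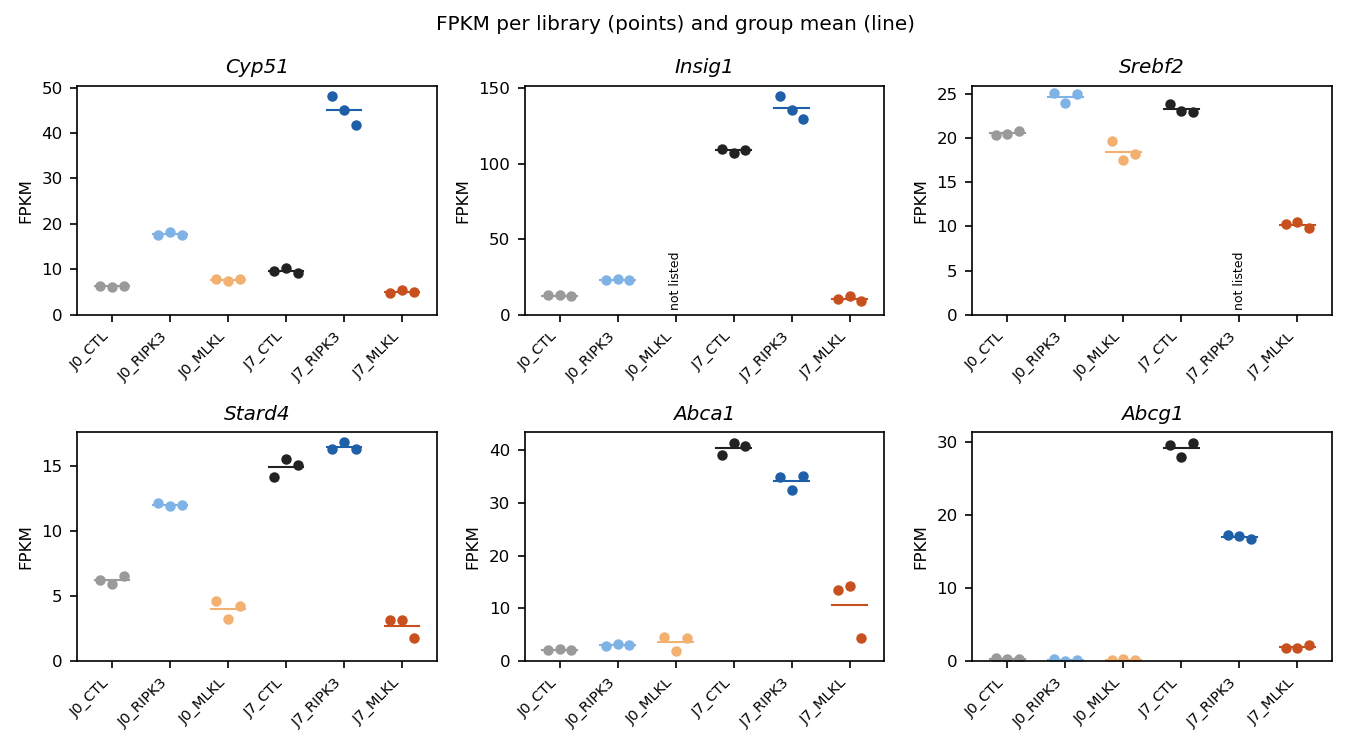
FPKM per library (points) and group mean (line) for Cyp51, Insig1, Srebf2, Stard4, Abca1 and Abcg1 in the 6 groups; groups without a listed value are marked. Cyp51 is highest in J7_RIPK3 (41.9 to 48.2 FPKM), while Abca1 and Abcg1 are highest in J7_CTL (39.1 to 41.3 and 28.1 to 29.9 FPKM).

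In the libraries titled J7_MLKL, the genes with a listed value were low. All 22 of them were called lower than in J7_CTL, with log2 fold changes from -0.61 to -3.78 and a median of -2.10. Without replicate 3 of J7_MLKL all 22 were called lower, from -0.83 to -3.92 with a median of -2.25. Over the 7263 genes tested, 94.9% were called, 48.5% higher and 46.4% lower, with a median of 0.17 and a median absolute change of 1.21. The 22 genes had values only because a J7_MLKL comparison had called them, so their number is no result. Ebp, Scap, Insig2, Npc1 and Npc2 have no listed value, as no J7_MLKL comparison of the authors called them. A lower level is therefore not shown for these genes. Without TMM factors, the scaling that evens out composition between libraries, the median of all genes shifts by -0.10, which leaves each of these directions as it is. In J7_MLKL against J7_RIPK3, 21 of 21 genes tested were lower, with a median of -2.24, where 86.8% of 6591 genes were called, 44.8% higher and 42.0% lower, and where the same shift was -0.17. Without J7_MLKL replicate 3 these 21 genes were called lower too, with a median of -2.36, and Pmvk moved from -1.50 to -2.09. These comparisons share the J7_MLKL libraries.

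Adipocyte markers moved with these values. In J7_MLKL against J7_CTL, 9 of 10 adipocyte markers were lower and 1 was not called, while 7 of 7 preadipocyte or fibroblast markers tested were higher. Over all genes tested there, 48.5% were called higher and 46.4% lower. The preadipocyte markers summed to 2202 to 2569 FPKM in J7_MLKL, over the 7 genes listed there. Over 8 genes they summed to 765 to 772 FPKM in J7_CTL and 517 to 561 FPKM in J7_RIPK3. In J0_CTL and J0_RIPK3 these markers summed to 2342 to 2513 and 2496 to 2524 FPKM, ranges that J7_MLKL overlapped. Their part in the low values of the cholesterol genes was not tested, and in bulk RNA fewer differentiated cells and less RNA of a gene in each cell cannot be told apart. Of the macrophage markers only Csf1r has a listed value in J7_MLKL, at no more than 0.17 FPKM, and Lyz2 and Cd68 have none there, so the level of the macrophage list is not known in that group. The 1 endothelial marker with a listed value reached 0.15 FPKM, 2 epithelial markers summed to at most 1.05 FPKM and 2 muscle markers to at most 10.4 FPKM.

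Acat2 read 22.3, 23.1 and 40.7 FPKM in the 3 J7_MLKL libraries, below the lowest J7_CTL library and, in replicates 1 and 2, below J0_CTL. Hmgcs1 read 12.2, 12.6 and 13.1 FPKM, a log2 fold change of -2.81 ± 0.09 against J7_CTL and of -2.87 without replicate 3. Mvk read 7.99, 8.37 and 15.4 FPKM. Replicate 3, the library that stands apart, was high for these early enzymes. Pmvk read 10.3, 9.81 and 24.4 FPKM. Mvd read 8.75, 9.49 and 18.2 FPKM. Without replicate 3, Pmvk changed by -1.83 in place of -1.24 ± 0.36, the largest move of any of the 22 values. In the same library Idi1 was low, at 2.59, 2.89 and 1.05 FPKM over replicates 1, 2 and 3. Fdps read 0.441, 0.591 and 0.351 FPKM. Fdft1 read 5.44, 5.48 and 11.2 FPKM. The library that stands apart was therefore not shifted in 1 direction over the pathway.

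Sqle read 10.5, 10.9 and 10.9 FPKM in J7_MLKL, close to its J0_CTL level of 8.76 to 10.5 FPKM. Lss read 3.04, 3.34 and 2.25 FPKM. Cyp51 read 4.86, 5.53 and 4.89 FPKM, a log2 fold change of -0.83 ± 0.11 against J7_CTL and -2.97 ± 0.11 against J7_RIPK3. Without replicate 3 these changes of Cyp51 were -0.83 and -2.97. The listed enzymes after Cyp51 were low as well. Tm7sf2 read 3.14, 3.07 and 5.38 FPKM, and its change of -0.61 ± 0.24 (adjusted p = 0.0399 in edgeR) lost its call with a minimum mean of 50 counts, without any 1 of the J7_CTL libraries or without J7_MLKL replicate 1 or 2. Its change against J7_RIPK3, -0.73 ± 0.24, lost its call without J7_RIPK3 replicate 1 or 3 or J7_MLKL replicate 1 or 2. Without replicate 3 of J7_MLKL the change against J7_CTL was -0.96. Tm7sf2 was the weakest of the 22 calls. Msmo1 read 5.65, 5.60 and 8.24 FPKM. Nsdhl read 8.58, 8.96 and 10.7 FPKM. Hsd17b7 read 3.12, 3.38 and 1.85 FPKM. For Msmo1, Nsdhl and Hsd17b7 each J7_MLKL library lay below each J0_CTL library. Sc5d read 4.94, 5.07 and 4.23 FPKM. Dhcr7 read 4.30, 5.01 and 5.76 FPKM, which reaches into its J0_CTL range of 3.99 to 4.34 FPKM.

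**Figure D4:**
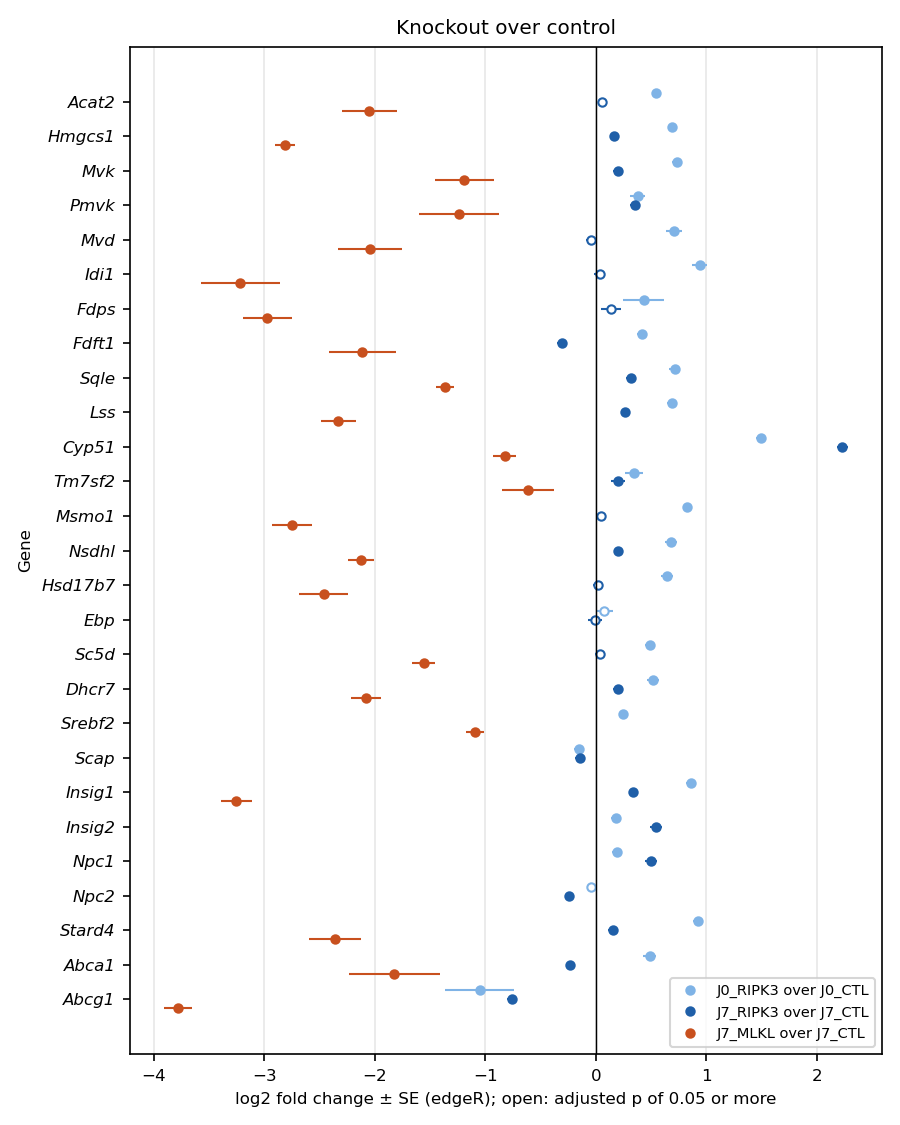
Log2 fold change of knockout over control at the same stage (x axis, bars show the SE of the edgeR fit, 3 libraries a group) for the 27 genes; open points have an adjusted p of 0.05 or more. J7_MLKL points (orange) run from -0.61 to -3.78, J0_RIPK3 points (light blue) lie mostly between 0 and 1, and Cyp51 stands at 1.496 and 2.23 in J0_RIPK3 and J7_RIPK3.

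Insig1, Srebf2, Stard4 and both pumps were lower in J7_MLKL too. Scap, Insig2, Npc1 and Npc2 had no listed value there, as the authors' test had not called them. Insig1 read 10.6, 12.4 and 9.04 FPKM, a log2 fold change of -3.25 ± 0.14 against J7_CTL and the second lowest of the 22 after Abcg1. Srebf2, which hardly moved with differentiation in control cells, read 10.3, 10.4 and 9.81 FPKM, a change of -1.09 ± 0.08. Stard4 read 3.20, 3.20 and 1.75 FPKM, a change of -2.36 ± 0.24. Without replicate 3 the changes were -3.18 for Insig1, -1.10 for Srebf2 and -2.15 for Stard4. Abca1 read 13.5, 14.2 and 4.37 FPKM, so that replicate 3 lay far below replicates 1 and 2. Its change was -1.82 ± 0.41 with that library and -1.48 without it. Abcg1 read 1.81, 1.87 and 2.25 FPKM against 28.1 to 29.9 FPKM in J7_CTL, a change of -3.78 ± 0.13 (13.7-fold lower, adjusted p = 5.44e-06 in edgeR), and of -3.92 without replicate 3. The pumps stayed above their J0_CTL levels of 2.07 to 2.25 FPKM for Abca1 and 0.318 to 0.368 FPKM for Abcg1 in each J7_MLKL library.

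In undifferentiated MLKL-/- cells few of the genes can be read, and these went in mixed directions. In J0_MLKL against J0_CTL, 9 genes were tested, of which 3 were higher, 3 lower and 3 not called, where 83.6% of 3824 genes were called, 40.4% higher and 43.2% lower. Without J0_MLKL replicate 2, 4 of the 9 were higher and 3 lower. Hmgcs1 read 18.8, 17.8 and 18.7 FPKM in J0_MLKL and was not called (-0.02 ± 0.06, adjusted p = 0.792 in edgeR). Cyp51 read 7.83, 7.46 and 7.79 FPKM and was higher by 0.34 ± 0.07. Insig2 read 14.9, 14.9 and 16.2 FPKM and was higher by 0.35 ± 0.07. These were small steps beside that of Cyp51 in J0_RIPK3. Hsd17b7 read 3.69, 2.53 and 3.86 FPKM and was lower by -0.60 ± 0.16. Stard4 read 4.60, 3.24 and 4.22 FPKM and was lower by -0.60 ± 0.13. In both, replicate 2, which stands apart, was the lowest, and without it the changes were -0.42 and -0.46. Sc5d read 7.09, 7.17 and 8.23 FPKM and Srebf2 read 19.7, 17.5 and 18.3 FPKM. Neither was called, although Sc5d was called higher without J0_MLKL replicate 2. Srebf2 was called lower in 3 alternatives: without J0_MLKL replicate 1 (-0.17), without TMM factors (-0.15) and with the authors' size factors (-0.17). Abca1 read 4.52, 1.84 and 4.34 FPKM, with a change of 0.74 ± 0.30 with replicate 2 and 1.07 without it. Abcg1 read 0.159, 0.295 and 0.143 FPKM, from 15, 34 and 15 reads, at -0.73 ± 0.29 with replicate 2 and -1.14 without it. The calls of both pumps were lost in 8 alternatives each, among them leaving out any J0_CTL library or J0_MLKL replicate 1 or 3.

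Set directly against J0_RIPK3, 6 of the 9 genes were lower in J0_MLKL and 3 were not called, where 66.5% of 3455 genes were called, 33.1% higher and 33.4% lower. The lowest were Stard4, at -1.54 ± 0.12, and Hsd17b7, at -1.26 ± 0.15, followed by Cyp51, at -1.17 ± 0.06. Without J0_MLKL replicate 2 they were -1.41 for Stard4, -1.09 for Hsd17b7 and -1.14 for Cyp51, so the order of the last 2 turned. Hmgcs1 was lower by -0.72 ± 0.06, Sc5d by -0.39 ± 0.08 and Srebf2 by -0.38 ± 0.06. Insig2, Abca1 and Abcg1 were not called, and without J0_MLKL replicate 2 Insig2 (0.18) and Abca1 (0.56) were called higher.

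Among the genes listed in both MLKL groups, 3 of 4 enzymes fell from J0_MLKL to J7_MLKL, and so did Srebf2, while the pumps rose. Of 8 genes tested, 4 were lower, 2 higher and 2 not called, where 66.7% of 3075 genes were called, 35.8% higher and 30.9% lower. The authors' test of this same comparison lists 6 of the genes, the 4 lower and the 2 higher. Hmgcs1, Sc5d, Srebf2, Abca1 and Abcg1 have J0_MLKL values only because that test called them, so these counts are no result. No rise or fall is shown for the enzymes without a J0_MLKL value, which no J0_MLKL comparison of the authors called. Srebf2 fell by 0.89 ± 0.09, Sc5d by 0.69 ± 0.12, Cyp51 by 0.63 ± 0.11 and Hmgcs1 by 0.58 ± 0.09 on the log2 scale. Abcg1 rose by 3.27 ± 0.30 and Abca1 by 1.54 ± 0.52 (adjusted p = 0.0353 in edgeR), with overlapping libraries for Abca1. The Abca1 call was lost without any 1 of the J0_MLKL libraries or without J7_MLKL replicate 1 or 2. Hsd17b7 (-0.31 ± 0.27) and Stard4 (-0.60 ± 0.26) were not called. With both libraries that stand apart left out, Hsd17b7 and Stard4 were called lower, at -0.28 and -0.53, and Abca1 rose by 1.58. Against the change in control cells, the interaction was called lower for 8 of 8 genes, where 65.3% of 3033 genes were called, 39.0% higher and 26.3% lower. The authors' test lists each of these 8 genes as lower in J7_MLKL than in J7_CTL, so this count is no result. The interaction ran from -1.08 ± 0.09 for Srebf2 to -3.15 ± 0.29 for Abcg1. Without both libraries that stand apart it was called lower for the 8 genes as well, from -1.10 for Srebf2 to -2.96 for Hmgcs1.

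Other genes of cholesterol handling were called in both directions in each of the comparisons below. Of 39 listed genes, 35 were found, among them receptors, esterases, oxysterol enzymes and sterol carriers. In J7_CTL against J0_CTL, 21 of 33 tested were higher and 12 lower, where 95.9% of all genes tested were called. The largest rises were those of Lipe, the hormone-sensitive lipase that also splits cholesteryl esters (5.81 ± 0.04), and Nr1h3. The deepest falls were those of Cyp7b1, an oxysterol hydroxylase (-2.43 ± 0.14), and Gramd1c, a sterol carrier (-2.31 ± 0.25). In J0_RIPK3 against J0_CTL, 10 of 30 were higher, 11 lower and 9 not called, against 55.8% of all genes called. The highest were Scarb1, the HDL receptor, at 1.38 ± 0.07 and Tmem97, a sterol-responsive membrane protein, at 0.60 ± 0.08. The lowest were Cyp7b1 and Vldlr. In J7_RIPK3 against J7_CTL, 18 of 32 were higher, 7 lower and 7 not called, against 59.1% called over all genes. Apoe, the apolipoprotein, was highest, at 0.93 ± 0.07, and Cyp7b1 and Vldlr were again the lowest. In J7_MLKL against J7_CTL, 8 of 26 were higher, 16 lower and 2 not called, against 94.9% called over all genes. Cyp7b1 was higher there by 4.11 ± 0.21, while Gramd1b, a sterol carrier, was lower by -3.21 ± 0.20.

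Fatty acid synthesis genes, read for context, moved partly with the cholesterol genes. In J7_CTL against J0_CTL, 4 of 5 were higher, led by Scd1, the stearoyl-CoA desaturase (6.30 ± 0.04), and Elovl6, an elongase, was lower (-0.26 ± 0.07). Over all genes tested there, 48.2% were called higher and 47.6% lower. In J0_RIPK3 and in J7_RIPK3, 5 of 5 were higher than in control cells of the same stage. Over all genes tested, 28.3% were called higher at J0 and 29.6% at J7. Scd1 was higher by 0.80 ± 0.04 at J0 and 0.85 ± 0.04 at J7. In J7_MLKL, 5 of 5 were lower than in J7_CTL, with Scd1 at -4.24 ± 0.13, where 46.4% of all genes tested were called lower. The authors' deposited pathway table lists terpenoid backbone biosynthesis for J7_MLKL against J7_CTL with 1 gene higher, 20 lower and an adjusted p of 0.00367, and steroid biosynthesis with 1 higher, 12 lower and an adjusted p of 0.0818. For J7_CTL against J0_CTL the authors' deposited table lists 21 genes of the terpenoid pathway higher and 2 lower, with an adjusted p of 0.121, and 14 genes of steroid biosynthesis higher and 2 lower, with an adjusted p of 0.194.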

How the data were processed

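RNA from 3T3-L1 cells was sequenced in 18 libraries, and the submitters' processing notes name the build mm10, HISAT2, DESeq2, FastQC 0.11.9 and featureCounts 1.5.0-p3. The 7 deposited gene tables give raw read counts per gene and library, per the file headers. They also give the authors' normalised count, a signal equal to the count divided by a size factor, and FPKM values from the authors. The deposited log2 fold changes, p-values and adjusted p-values are the authors' own, and each table lists only genes with their adjusted p under 0.05. The pathway tables with the authors' p-values were read for 2 pathways. The deposited tables state further values, such as a gene length, in other columns.

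Counts were joined by gene identifier over the tables; of 88950 counts present in more than 1 table, 0 differed. Library totals were recovered for each library on its own from count, FPKM and length. Genes with counts in both groups were filtered (filterByExpr), scaled by TMM and tested with edgeR 4.0.16 (quasi-likelihood F test, R 4.3.3) in 9 pairs of groups, each fitted on its own libraries, and 2 interactions, each on 4 groups. Adjustment was Benjamini-Hochberg over all genes tested, and a call needs an adjusted p under 0.05. SE is the log2 fold change over the root of F. The fit was tested on simulated data. Alternatives were other scaling, DESeq2 1.42.0, other filters, a replicate block, each library left out and the opposite naming of the J7 knockouts. Replicate numbers did not pair the libraries. Members and lists were chosen with earlier results of these data known. Values in every library are printed for genes called with an absolute log2 fold change of at least 1 in a comparison; of the other pathway genes the 2 highest and 2 lowest calls may be named. Strandedness is not given in the sources used here, so reads of overlapping genes cannot be told apart. Some genes of the pathway are not reported here.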

Additional observations from a re-analysis of the deposited data

Results flagged for a closer look

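The change from J0 to J7 differed between a knockout and control cells, by an edgeR interaction test with adjusted p under 0.05, for the genes below. Values are differences of log2 fold changes, knockout minus control. For MLKL-/- cells they were -2.90 for Hmgcs1, -1.27 for Cyp51, -1.97 for Hsd17b7, -1.77 for Sc5d, -1.08 for Srebf2, -1.86 for Stard4, -2.67 for Abca1 and -3.15 for Abcg1. These 8 genes are those listed in both MLKL groups, and the authors' test lists each as lower in J7_MLKL than in J7_CTL. Their number is therefore no result. Without J7_MLKL replicate 3 they were called from -1.05 for Srebf2 to -3.27 for Abcg1, and without J0_MLKL replicate 2 from -1.12 for Srebf2 to -2.99 for Abca1. For RIPK3-/- cells the synthesis genes gave -0.48 for Acat2, -0.53 for Hmgcs1, -0.53 for Mvk, -0.75 for Mvd, -0.90 for Idi1 and -0.73 for Fdft1. Later enzymes gave -0.40 for Sqle, -0.42 for Lss, 0.74 for Cyp51, -0.78 for Msmo1, -0.48 for Nsdhl, -0.63 for Hsd17b7, -0.45 for Sc5d and -0.32 for Dhcr7. Outside synthesis the values were -0.52 for Insig1, 0.36 for Insig2, 0.31 for Npc1, -0.20 for Npc2, -0.77 for Stard4 and -0.72 for Abca1. Both tests share the J0_CTL and J7_CTL libraries, and both rest on the naming of the J7 knockouts by title.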

How the results depend on the processing

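Of the alternative values for single genes, 28 turned direction with at least 1 of the values called, 16 gained a call, 45 lost one and 2837 did none of these. A turn with neither value called counts among the 2837. Hmgcs1 in J0_MLKL against J0_CTL was such a turn, from -0.017 to 0.016 without J0_MLKL replicate 2. All 28 turns that involved a call came from naming the J7 knockouts by the genotype characteristic. Under that naming J7_MLKL against J0_MLKL had 8 genes higher and 0 lower, with Hmgcs1 at 2.66, Cyp51 at 2.70, Hsd17b7 at 2.44, Sc5d at 1.17 and Stard4 at 2.19. J7_RIPK3 against J0_RIPK3 had 2 higher and 12 lower, among the latter Hmgcs1 at -1.30, Idi1 at -2.11, Sqle at -0.57, Lss at -0.94, Cyp51 at -1.79, Msmo1 at -1.23, Nsdhl at -1.03, Hsd17b7 at -1.57, Sc5d at -1.09, Insig1 at -1.12 and Stard4 at -2.14. Not called there, though below 0, were Acat2 at -0.53, Mvk at -0.69, Mvd at -0.40, Fdps at -0.42, Fdft1 at -0.62 and Dhcr7 at -0.25. The MLKL interaction then had 4 genes higher and 1 lower, with Hmgcs1 at 0.16, Cyp51 at 1.87, Hsd17b7 at 0.61 and Stard4 at 0.75, and the RIPK3 interaction had 0 higher, with Cyp51 at -2.35 and Abcg1 at -2.76. In the J7 comparisons against J7_CTL that naming exchanges the 2 knockouts.

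The replicate block left 1 gene higher, Abcg1, in J7_MLKL against J0_MLKL, and leaving out single libraries gave 1 to 2. The numbers are shared only as numbers, since no pair of groups had all 3 correlations over 0.1. The correlations compare the departures of each library from its group mean, gene by gene. Between J0_MLKL and J7_MLKL they were 0.72, -0.85 and -0.78 for numbers 1, 2 and 3, over 2032 genes. J0_MLKL replicate 2 and J7_MLKL replicate 3 thus departed from their groups largely along a shared pattern, whose cause was not tested. A mean of at least 50 counts left 1 gene lower in J0_RIPK3 against J0_CTL, because Abcg1 fell below that filter and was not tested. J0_MLKL against J0_RIPK3 had 1 gene higher with no filter on low counts and 0 to 2 with single libraries left out. The cause of the other shifts was not tested. The authors' size factors could be applied only to the 7 pairs with a deposited table, so they were not run for the direct comparisons of the knockouts or the interactions. Leaving out J0_MLKL 2 and J7_MLKL 3 together was chosen after seeing the data. Depth limits Abcg1 at J0, with 7 to 52 reads a library, and the listing limits what can be said of the MLKL groups.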
